A study of Saccharomyces cerevisiae with 36 samples.

Results

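The genes described here encode the histone deposition factors of the HIR complex (HIR1, HIR2, HIR3 and HPC2), the H3/H4 chaperones Asf1 (ASF1) and Rtt106 (RTT106), the 3 subunits of CAF-1 (RLF2, CAC2 and MSI1) and the histone gene regulator Spt21 (SPT21). They were chosen by symbol and not by their values, although with earlier results of these data known. All 10 were on the array, among 5315 gene symbols and 6388 yeast probes. Each had 1 probe, printed as 2 spots. Messenger RNA of 18 budding yeast strain groups, with 2 arrays per group, was measured on 36 dual-channel oligonucleotide arrays. The second channel always held the same reference, wild-type RNA from 1 culture. All values are log2(strain / reference) or differences between such ratios, so that they compare samples for 1 gene and never the level of one gene with that of another.

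Newly made histone H4 is acetylated by the NuB4 complex, in which Hat1 is the catalytic subunit, Hat2 its histone-binding partner and Hif1 a nuclear chaperone. Asf1 receives H3-H4 dimers and passes them on: to CAF-1 and Rtt106, which assemble nucleosomes behind the replication fork, or to the HIR complex, which deposits them outside S phase. HIR, Asf1 and Rtt106 also act at the promoters of the histone genes themselves, where HIR keeps transcription low outside S phase, whereas Spt21, together with Spt10, activates it.

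The first 7 groups were growing (mid-log) BY4742 strains that lack HAT1, HAT2 or HIF1, alone or together (labelled hat1-del, hat2-del, hif1-del and their combinations, written here as hat1Δ and so on; 14 arrays). A further 3 groups were growing strains labelled wt-rite, wt-rite-H3-HA and wt-rite-H3-T7 (6 arrays). RITE is a cassette that exchanges the epitope tag on H3. Per the study's strain list, these strains are MATa, lack HHT1-HHF1 so that HHT2 and HHF2 are their only H3 and H4 genes, carry bar1::HisG and express a Cre-EBD fusion from the TDH3 promoter. Their H3 is untagged, HA-tagged or T7-tagged. The last 8 groups were H3-RITE strains with the same H3 and H4 genes, Cre-EBD and bar1 deletion, arrested in G0 by starvation, for 3 days per the study (16 arrays). They were the wild type (wt-starved), the single mutants of HAT1, HAT2 and HIF1, the double mutants hat1Δhif1Δ and hat2Δhif1Δ, and a pair of strains in which lysines 5 and 12 of H4 are glutamines (hhf2-mut-K5Q-K12Q, written H4K5,12Q) or arginines (hhf2-mut-K5R-K12R, written H4K5,12R). Per the study's methods, growing cells were harvested in synthetic complete medium and starved cells in rich medium, and the labels give the starved RNA another isolation protocol than all growing and reference RNA. Per the strain list, the starved strains also carry the HA-to-T7 switch cassette with its hygromycin resistance marker at HHT2, and other auxotrophic markers than the growing RITE strains. The methods refer the starved harvest to the turnover experiments, in which β-estradiol was added to switch the H3 tag from HA to T7. Growth state, medium, RNA isolation, strain construction and any such treatment therefore cannot be told apart.

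The labels name BY4742, a MATα strain, for every sample. On all 22 arrays of RITE strains, however, the 6 a-specific genes lay above the reference, STE2 at 4.30 to 5.28 (log2 ratio), and on the 14 arrays of mid-log deletion strains STE2 lay at -0.12 to -0.0039. BAR1 was among the genes above the reference in the RITE strains, at 2.02 to 3.31, although it is listed as disrupted. Of the α-specific genes, MF(ALPHA)1, MF(ALPHA)2 and STE3 lay below the reference on all RITE arrays. SAG1 lay below it on the growing RITE arrays, at -3.37 to -1.76, but ran from -0.88 to 1.37 on the starved arrays. The probes of HAT1, HAT2 and HIF1 were low in strains without the gene: with the deletion on matched mid-log backgrounds HAT1 fell by 2.97, HAT2 fell by 2.43 and HIF1 fell by 2.25 on the log2 scale. In the channel of the strain, 94.6% to 99.5% of spots were more than 2 SDs above local background. The 2 arrays of a strain correlated, across probes, at 0.68 to 0.82 in the mid-log deletion strains, at 0.92 to 0.96 in the growing RITE strains and at 0.96 to 0.98 in G0. The series' design gives independent cultures for the 2 arrays of a strain, but no label ties an array to a culture, so the p-values rest on array-to-array spread, which may be partly technical. The spot of ATG33 gave no signal in either channel on the arrays of the growing RITE strains and of G0 wild type, hat1Δ, hat2Δ and hif1Δ, and gave signal on all other arrays, the reference channel included, so that 2 sets of arrays can be recognised.

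The spots of 9 members were well measured. Of 72 spots per gene, all were more than 2 SDs above background in both channels, save 1 strain-channel spot of RLF2, and 0 were saturated. HIR1, a WD-repeat subunit of the HIR complex, was the exception in brightness. Its net signal in the strain channel was 12.3 to 36.1 intensity units, with a median of 17.4, against medians of 169 to 493 for the others, and its mean intensity stood at the 5.85th percentile of all yeast probes. This is below the offset of 50 units that the background correction adds, so ratios of HIR1 are drawn towards 0.

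**Figure D1:**
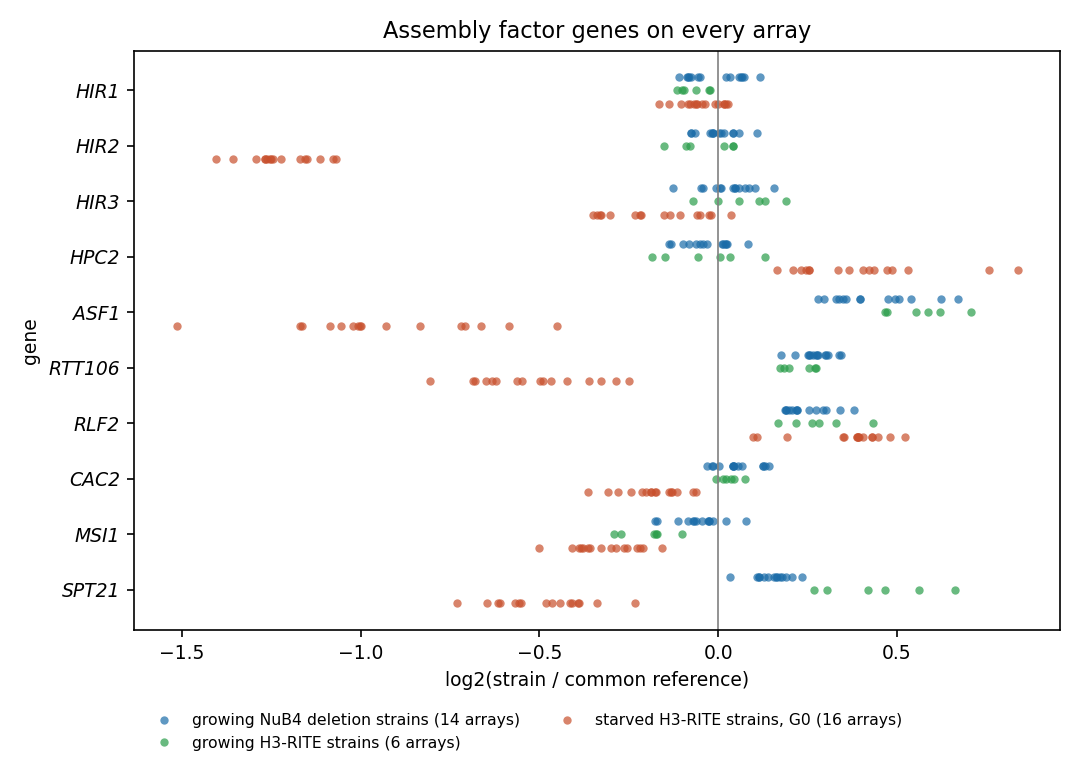
Each point is 1 array; the x axis is log2(strain / common reference) and the y axis the gene, with growing NuB4 deletion strains (14 arrays) in blue, growing H3-RITE strains (6 arrays) in green and starved H3-RITE strains (16 arrays) in orange. The starved arrays lie wholly below the growing arrays for HIR2, ASF1, RTT106, CAC2 and SPT21, wholly above them for HPC2, and overlap them for HIR1, HIR3, RLF2 and MSI1.

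The difference between starved and growing cells was examined first. The G0 wild type (2 arrays) was compared with the mean of the 3 growing RITE strains (6 arrays), all of which belong to the same set of arrays, in limma (22 arrays of starved and growing RITE strains in 1 fit, with a dye effect for each gene; Benjamini-Hochberg over all probes; called at an adjusted p under 0.05). ASF1, HIR2 and SPT21 fell to 0.396, 0.422 and 0.484 of their level in growing cells, RTT106, CAC2 and HIR3 fell by less, and HPC2 rose. In bulk samples fewer cells with a transcript and less of it per cell cannot be told apart. Of the 10 genes, 1 was higher and 6 were lower. In this comparison most of the genome was called, 78.2% of the probes, 40% higher and 38.2% lower, so that a called member is no exception among yeast genes. The median difference over the 10 members was -0.33 and that over all probes 0.01.

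ASF1 had the largest difference of the members. It lay between 0.47 and 0.71 on the 6 growing RITE arrays and at -1.09 and -0.45 on the 2 arrays of the G0 wild type, which thus differed from each other by more than the growing arrays did. The log2 difference was -1.34 ± 0.17 (SE), a ratio of 0.396 (limma adjusted p = 1.20e-05). Over all 8 starved strains ASF1 was at -1.52 to -0.45 (median -1.001, 16 arrays) and on all 20 growing arrays at 0.28 to 0.71, and the ranges did not overlap.

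HIR2, the second WD-repeat subunit of the HIR complex, was at -1.29 and -1.27 in the G0 wild type and between -0.15 and 0.04 on the growing RITE arrays. The log2 difference was -1.24 ± 0.07 (SE), a ratio of 0.422 (limma adjusted p = 1.06e-08). The 8 starved strains ran from -1.41 to -1.07 (median -1.25), and their strain means spanned only -1.30 in hat1Δ to -1.12 in hif1Δ, against a pooled SD of 0.10 between arrays of a strain.

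The other subunits of HIR did not follow HIR2. HIR3, the large scaffold-like subunit, differed by -0.30 ± 0.06 (limma adjusted p = 4.09e-04). It was at -0.33 and -0.14 in the G0 wild type and between -0.07 and 0.19 on the growing RITE arrays, and over all 16 starved arrays (-0.35 to 0.04) its range overlapped that of the growing ones. Under median centring without loess the difference of HIR3 was -0.18, with an adjusted p of 0.0649 in limma. HPC2, the histone-binding ubinuclein-like subunit, rose by 0.40 ± 0.06 (limma adjusted p = 1.09e-04), from -0.18 to 0.13 on the growing RITE arrays to 0.25 and 0.47 in the G0 wild type. All 16 starved arrays, at 0.17 to 0.84, were above all 20 growing arrays. HIR1 differed by 0.04 ± 0.05 (95% interval -0.06 to 0.13; limma adjusted p = 0.473). Its direction turned with median centring (-0.06), while print-tip loess and the authors' ratios gave 0.09 and 0.17 and called it higher. Of 4 genes of 1 complex, 1 was thus higher, 2 were lower and 1, the dim HIR1, was not called.

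RTT106 was at -0.69 and -0.36 in the G0 wild type and between 0.17 and 0.27 on the growing RITE arrays. Its log2 difference was -0.75 ± 0.10, a ratio of 0.594 (limma adjusted p = 1.36e-05). The 16 starved arrays, at -0.81 to -0.25, and the 20 growing arrays, at 0.17 to 0.34, did not overlap.

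SPT21 was at -0.65 and -0.55 in the G0 wild type. On the growing RITE arrays it ran from 0.27 to 0.66, with the untagged strain at the low end. The log2 difference was -1.05 ± 0.10, a ratio of 0.484 (limma adjusted p = 1.20e-06), and all 16 starved arrays (-0.73 to -0.23) were below all 20 growing arrays (0.03 to 0.66).

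The 3 subunits of CAF-1 differed from one another. CAC2, the middle subunit, was at -0.31 and -0.36 in the G0 wild type and at -0.01 to 0.08 on the growing RITE arrays, a log2 difference of -0.37 ± 0.05 (limma adjusted p = 3.19e-05). MSI1, the small WD-repeat subunit, which also acts in the Ras pathway, was at -0.36 and -0.26 in the G0 wild type and at -0.29 to -0.10 on the growing RITE arrays. Its difference of -0.11 ± 0.05 was not called (95% interval -0.22 to -0.0040; limma adjusted p = 0.0552). RLF2, the large subunit, was at 0.39 on both arrays of the G0 wild type and at 0.17 to 0.43 on the growing RITE arrays, and its difference of 0.11 ± 0.06 was not called either (95% interval -0.02 to 0.23; limma adjusted p = 0.111). Print-tip loess, median centring and the authors' ratios gave 0.22, 0.22 and 0.15 and called RLF2 higher, and print-tip loess and the fit of all 36 arrays called MSI1 lower, at -0.16 and -0.11.

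**Figure D2:**
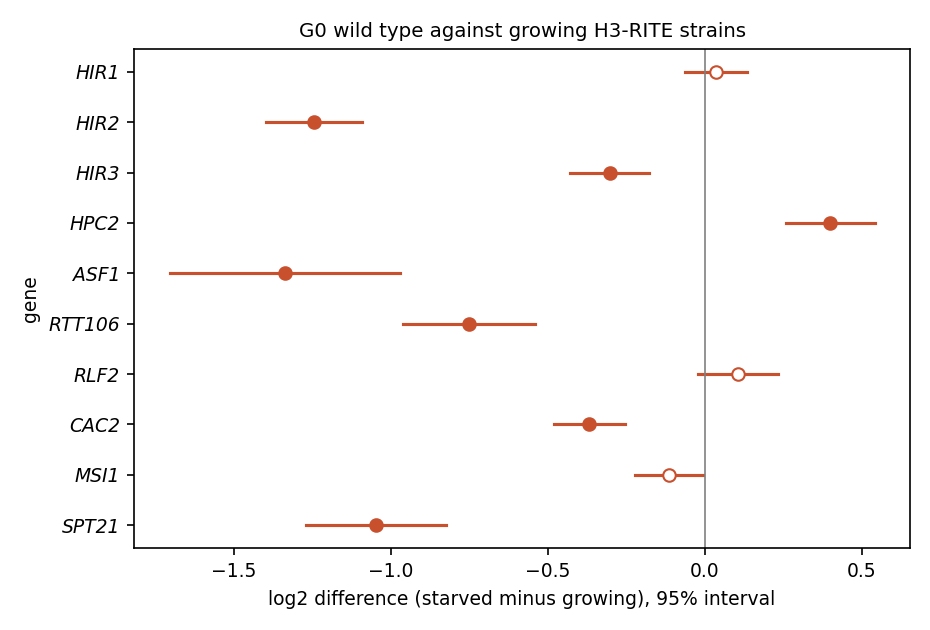
Points are the log2 differences of the G0 wild type from the mean of the 3 growing H3-RITE strains (x axis) for each gene (y axis), with 95% intervals as lines; filled points passed an adjusted p of 0.05 in limma. HPC2 is the only filled point to the right of 0, at 0.40, and ASF1, at -1.34, lies farthest to the left.

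With ranges in place of the fit, 1 member was higher and 5 were lower on all 16 starved arrays than on any of the 20 growing arrays, where 26.3% and 26% of all probes were, 52.3% in either direction. Against the 6 growing RITE arrays alone the counts of members were the same, where 28.8% and 27.9% of all probes were, 56.7% together. This description joins both sets of arrays and all mutants. HIR3, called lower in the wild type, is the member that the ranges do not separate. Compared with the growing H3-HA strain alone, in which H3 carries the tag with which the G0 strains started, 1 member was again higher and 6 lower (all probes: 36.7% and 35.6%, 72.3% together), with ASF1 at -1.30, HIR2 at -1.23 and SPT21 at -1.14. Against the reference RNA, 2 members were higher in the G0 wild type, RLF2 at 0.39 and HPC2 at 0.36, and 7 were lower, where 42.3% and 39.8% of all probes were, 82.2% together.

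Genes that work with the members were read, in the G0 wild type against the growing RITE strains, from lists drawn up from general knowledge. The lists were chosen with earlier results of these data known. They overlap, so that some genes are counted again in a later list. VPS75 is listed as a partner and a chaperone, RTT109 as a partner and a regulator, and YTA7 as a chaperone and a regulator. POL30 and MCM2, listed as partners, return among the G1/S and the helicase genes. All their counts stand beside the 78.2% of probes called in that comparison, 40% higher and 38.2% lower. Of 11 partners of Asf1 and CAF-1, 5 fell and 3 rose (median -0.17). Among those that fell were VPS75, a chaperone that stabilises the acetyltransferase Rtt109, by 1.42, POL30, which encodes the sliding clamp PCNA that recruits CAF-1, by 1.35, and MCM2, a helicase subunit that binds histones, by 0.76. RTT109, which acetylates H3 lysine 56 on Asf1-bound histones, had a difference of -0.61 ± 0.09 and fell too. RTT101, the cullin of a ubiquitin ligase that acts on these histones, rose by 0.57 ± 0.07.

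Of 10 measured genes of other histone chaperones, 6 fell and 3 rose (median -0.29). The FACT subunit POB3 fell by 0.65 ± 0.06. NHP6B, an HMG protein that works with FACT, rose by 1.87 ± 0.10. Of 10 regulators of the histone genes, among them RTT109 and YTA7 of the lists above, 5 fell and 2 rose. NRM1, a co-repressor of G1/S transcription, had the lowest value at -2.23, and YTA7, an ATPase at histone genes, the highest at 0.75. SPT10, the partner of SPT21, was at -0.06 ± 0.07 and was not called.

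Of 16 G1/S genes, which include the polymerase and cohesin genes expressed around S phase, 14 fell and 0 rose (median -0.61), with RNR1 at -2.58 and MCD1 at -2.35. All 6 genes of the MCM helicase fell, by 0.24 to 0.77. Of the 8 core histone genes 3 fell and 1 rose. These 8 include HHT1 and HHF1, which the RITE strains lack, so their probes cannot be read as transcripts of those genes. The HHF1 probe was nonetheless at -0.63 to -0.13 on the growing RITE arrays and at -2.01 to -1.26 on the starved arrays. Among those that both strains carry, HHF2 fell by 0.81 and HTA1 rose by 0.44, while HHT2 was at 0.17 ± 0.10 (limma adjusted p = 0.122). The NuB4 gene HAT1 fell by 1.01, and HAT2 and HIF1, at -0.22 and -0.19, were not called. Of the markers of starvation 7 of 7 were higher (1.68 to 4.97), and of the markers of growth 6 of 6 were lower (-2.90 to -0.68).

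The next comparison was of the NuB4 genes in growing cells. Each deletion was read on 3 matched backgrounds, 6 arrays with it against 6 without, in a fit of 14 arrays, which leaves out the reference as a control. None of the 3 deletions moved a member past the threshold. For HIF1, 0 of 10 members were called where 0.329% of all probes were, 1 member and 972 probes (15.2%) had an unadjusted p under 0.05 in limma, and the differences ran from -0.03 to 0.05. For HAT1 the counts were 0 of 10 against 4.7% of all probes, with 4 members and 1591 probes (24.9%) at an unadjusted p under 0.05 and differences from -0.08 to 0.08. For HAT2, where only 0.0157% of all probes were called, 0 members were called, 0 members and 294 probes (4.6%) had an unadjusted p under 0.05, and the differences ran from -0.04 to 0.04.

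The intervals were narrow. For the genes other than ASF1 the 95% intervals lay between -0.11 and 0.14 for all 3 deletions, and those of ASF1, which had more scatter, reached from -0.19 to 0.11. The same HIF1 deletion raised 7 of the 8 core histone genes, by 0.16 to 0.27, HHT2 by 0.27 ± 0.03 (limma adjusted p = 0.0035). Over all probes 21 were called in this fit, 3 in a fit of all 36 arrays and 4 without the replicate block. These 7 genes cannot all have been called in the latter fits. Whether histone genes and assembly factors differ in their response was not tested as such.

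The HAT1 deletion came closest to the threshold. MSI1 lay at -0.18 to -0.03 on the 6 arrays with HAT1 and at -0.11 to 0.08 on the 6 without it, so that the groups overlapped. Within the 6 pairs of arrays with the same background and replicate letter, MSI1 was higher without HAT1 in 6, and so was CAC2. Of the other members, HIR3 was higher in 5 pairs, HIR2 in 4, RLF2 in 3 and HIR1 and HPC2 in 2. ASF1, RTT106 and SPT21 were higher in 1. How many of all probes were higher in 6 pairs was not computed. The difference of MSI1 was 0.08 ± 0.02 (limma adjusted p = 0.0600). CAC2 was at 0.06 ± 0.02 (adjusted p = 0.0983), HIR3 at 0.07 ± 0.03 and HIR2 at 0.05 ± 0.02. Without 1 array, hif1Δ replicate a, 3 members were called, with MSI1 at 0.09, HIR3 at 0.10 and ASF1 at -0.14, and without hat2Δhif1Δ replicate b MSI1 was called alone. The shares of all probes called in these fits were not computed, so whether calls rose across all probes is not known.

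**Figure D3:**
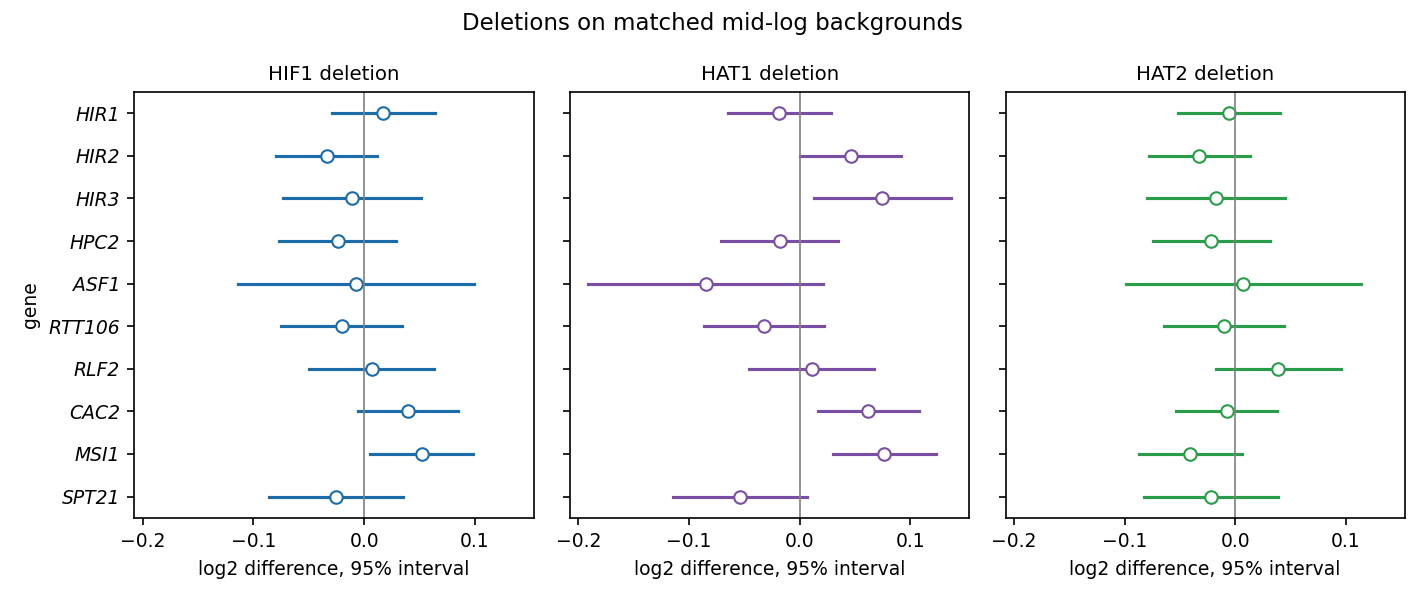
Log2 differences (x axis) of each gene (y axis) with and without HIF1, HAT1 or HAT2 on 3 matched mid-log backgrounds, with 95% intervals from a fit of 14 arrays. All points are open because 0 passed an adjusted p of 0.05, and all lie between -0.08 and 0.08.

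Compared with the reference RNA itself, 4 genes stood above 0 on every growing array, whatever the genotype. What share of all probes did so was not computed, so this count has no background. ASF1 was at 0.28 to 0.67 on the 14 arrays of deletion strains and at 0.47 to 0.71 on the 6 RITE arrays. RTT106 was at 0.18 to 0.34 and 0.17 to 0.27, RLF2 at 0.19 to 0.38 and 0.17 to 0.43, and SPT21 at 0.03 to 0.23 and 0.27 to 0.66. All 4 were called higher in each of the 7 deletion strains and in the untagged RITE strain. SPT21 lost its call in all 7 deletion strains in a fit of all 36 arrays. In the triple mutant SPT21 lost it under 6 of 10 alternatives, and its value of 0.09 was 0.04 under print-tip loess or without replicate b and 0.03 under the authors' ratios. Leaving out 1 array also ended the call of SPT21 in hat1Δhat2Δ and hat2Δ (replicate a), in hif1Δ (replicate b) and in hat1Δhif1Δ (either). All these strains share 1 reference RNA, whose own spread was not measured, so they are not separate observations.

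Members called higher against the reference numbered 4 in hat1Δ (21.6% of all probes), hat2Δ (24.5%) and hat2Δhif1Δ (22.8%), and 5 in hif1Δ (24.9%), hat1Δhif1Δ (24.8%), hat1Δhat2Δ (25.2%) and the triple mutant (25.1%). The fifth gene was CAC2 in 3 of these strains, at 0.08 to 0.13, and HIR3 in hat1Δhat2Δ, at 0.10. HIR3 lost this call under 7 of 10 alternatives, and CAC2 under 4 in hif1Δ, 3 in hat1Δhif1Δ and 1 in the triple mutant (0.094 without replicate b). Members called lower were MSI1 in hat2Δ (23.2% of all probes lower) and hat1Δhat2Δ (23.5%), MSI1 and HIR2 in hat2Δhif1Δ (21.6%), and HPC2 in the triple mutant (24.3%), all at -0.13 to -0.07. Each of these calls was lost under at least 1 alternative: MSI1 in hat1Δhat2Δ and HIR2 in hat2Δhif1Δ lost theirs under all 10 alternatives, HIR2 turning to 0.0056 under print-tip loess and 0.024 under the authors' ratios. HPC2 in the triple mutant and MSI1 in hat2Δhif1Δ each lost theirs under 5 of 10, and MSI1 in hat2Δ under the authors' ratios. In either direction the probes called made up 42% in hat1Δ, 44.4% in hat2Δhif1Δ, 47.5% in hif1Δ, 47.6% in hat1Δhif1Δ, 47.7% in hat2Δ, 48.7% in hat1Δhat2Δ and 49.4% in the triple mutant. In the untagged RITE strain 4 members were higher and 3 lower, where 27.3% and 24.7% of all probes were, 52.1% together. MSI1 was the lowest of these, at -0.22 ± 0.03 (limma adjusted p = 1.01e-04). The others were HPC2 at -0.09 and the dim HIR1 at -0.06 (limma adjusted p = 0.0492). HPC2 lost its call here under 5 of 10 alternatives and HIR1 under 8 of 9. SPT21 was the one member for which the 2 kinds of growing strain did not overlap, with all 6 RITE arrays above all 14 arrays of deletion strains. The share of all probes without such overlap was not computed, so this count has no background to be read against. The 2 kinds of strain differ in mating type, in H3 and H4 gene number and in the NuB4 genes, of which each deletion strain lacks at least 1. They also differ in bar1, Cre-EBD, auxotrophic markers and array set, and these differences cannot be told apart. Markers of starvation differed too: HSP26 was at 0.23 to 3.29 on the growing RITE arrays and at -0.84 to -0.32 on the arrays of deletion strains, and HSP12 at 2.23 to 3.91 and 0.87 to 1.73. Their part in the values of SPT21 was not tested.

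Tagging of H3 was compared within the growing RITE strains (2 arrays each). Here 44.7% of all probes were called for H3-HA and 38.1% for H3-T7 against untagged H3. Of the 10 members, 2 were higher with H3-HA and 1 with H3-T7, where 25.3% and 22.7% of all probes were higher, and both comparisons use the same 2 untagged arrays. SPT21 was at 0.27 and 0.31 in the untagged strain, at 0.42 and 0.66 with H3-HA and at 0.47 and 0.56 with H3-T7, so that all 4 tagged arrays were above both untagged ones. For such a separation no share of all probes was computed. The differences were 0.25 ± 0.05 (limma adjusted p = 0.00305) and 0.23 ± 0.05 (adjusted p = 0.00703). Median centring gave 0.17 and 0.14 and ended both calls, as did leaving out replicate b of the untagged strain (0.19 and 0.16) or a fit of all 36 arrays. Each call was also lost without 1 tagged array, replicate b for H3-HA (0.16) and replicate a for H3-T7 (0.21).

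HPC2 was at -0.18 and 0.01 in the untagged strain and at -0.06 and 0.13 with H3-HA, ranges that overlapped. Its difference of 0.13 ± 0.04 (limma adjusted p = 0.0206) had an adjusted p of 0.346 without the replicate block, and the call was lost without any 1 of the 4 arrays. It was also lost under print-tip loess (0.08), median centring (0.06) and the authors' ratios (0.08) and in the fit of all 36 arrays, in all under 9 of 12 alternatives. HIR2 with H3-T7 was at -0.11 ± 0.05 (adjusted p = 0.0805), and print-tip loess, median centring and the authors' ratios called it lower, at -0.18, -0.23 and -0.16. The starvation markers moved in the same comparisons: with H3-HA 5 of 7 and with H3-T7 6 of 7 were higher, HSP26 by 2.32 and 2.06. Their part in the values of SPT21, HPC2 and HIR2 was not tested. The H3 gene HHT2, whose transcript carries the tag, fell by 0.37 with H3-HA and by 0.25 with H3-T7.

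**Figure D4:**
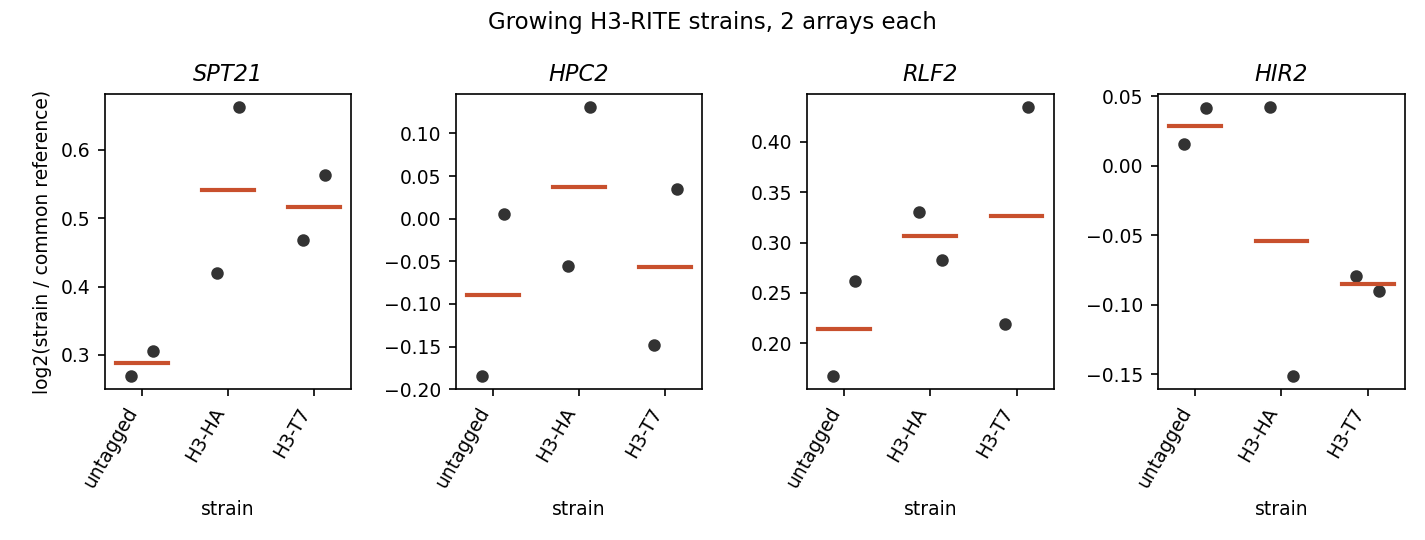
Log2(strain / common reference) (y axis) of SPT21, HPC2, RLF2 and HIR2 in growing H3-RITE strains with untagged, HA-tagged and T7-tagged H3 (x axis); points are the 2 arrays of a strain and bars their mean. The y axes differ in scale, and replicate a is drawn left of replicate b; all 4 tagged arrays of SPT21, at 0.42 to 0.66, lie above the untagged ones at 0.27 and 0.31.

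The starved mutants were set against the starved wild type in 1 fit of 16 arrays. All 7 comparisons share the same 2 wild-type arrays, and hat1Δhif1Δ, hat2Δhif1Δ and both H4 mutants lie in the other set of arrays than the wild type, so that for these 4 strains mutation and array set cannot be told apart. None of the 10 members was called in any of the 7 strains. The share of all probes called was 0.0157% in hat1Δ and in hat2Δ, 0.329% in hif1Δ, 0.0626% in hat1Δhif1Δ, 0.157% in hat2Δhif1Δ, 0.595% in H4K5,12Q and 3.24% in H4K5,12R. By strain, 0 to 2 members and 264 to 1413 of all probes (4.13% to 22.1%) had an unadjusted p under 0.05.

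The lowest adjusted p-value of the members was that of the CAF-1 gene RLF2 in H4K5,12R. RLF2 was at 0.10 and 0.11 in H4K5,12R, below all other starved arrays, and at 0.19 and 0.35 in H4K5,12Q. In the other 6 starved strains it was at 0.35 to 0.52, with the wild type at 0.39 on both arrays. A share of all probes was not computed for this separation. The difference of H4K5,12R from the wild type was -0.29 ± 0.07 (95% interval -0.44 to -0.13; limma adjusted p = 0.0542). It was called under print-tip loess (-0.35), median centring (-0.42), the authors' ratios (-0.35) and in the fit of all 36 arrays (-0.29). In these settings 5.79%, 3.71%, 6.87% and 20.9% of all probes were called in H4K5,12R, against 3.24% in the main fit. In H4K5,12Q the difference was -0.12 ± 0.07 (adjusted p = 0.409), and it was called under print-tip loess (-0.29) and the authors' ratios (-0.27). There 1.94% and 2.43% of all probes were called. The hat1Δhif1Δ and hat2Δhif1Δ strains, of the same array set as the H4 mutants, had RLF2 at 0.39 to 0.48. The part of the array set in the values of RLF2 was not tested.

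CAC2 was lowest in the wild type, at -0.31 and -0.36, and all 14 mutant arrays were above it, at -0.28 to -0.06. What share of all probes separates the wild-type arrays in this way was not computed. The difference was largest in hat1Δhif1Δ, at 0.24 ± 0.07 (limma adjusted p = 0.24), and 5 of 7 mutants had an unadjusted p under 0.05. Since these 5 share the wild-type arrays, they are not 5 separate observations. HPC2 was highest in the H4 mutants, at 0.37 and 0.76 in H4K5,12Q and 0.41 and 0.84 in H4K5,12R, against 0.25 and 0.47 in the wild type, and the ranges overlapped. Its differences were 0.20 ± 0.09 (adjusted p = 0.297) and 0.26 ± 0.09 (adjusted p = 0.132).

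HIR1, the dim probe, was at -0.16 and -0.14 in H4K5,12R, below the wild type at -0.09 and 0.02. Its difference of -0.12 ± 0.06 (limma adjusted p = 0.320) became -0.50 with a normexp offset of 0 and was then called. In that setting 6.86% of all probes were called in H4K5,12R.

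ASF1 had the widest spread. It was at -1.52 and -0.999 in hat2Δ and at -1.09 and -0.45 in the wild type, a difference of -0.49 ± 0.22 whose interval, -0.98 to 0.01, includes 0 (limma adjusted p = 0.674). Its pooled SD between arrays of a starved strain was 0.27, against 0.10 for HIR2, so that for ASF1 a difference of this size was not detectable with 2 arrays a strain.

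**Figure D5:**
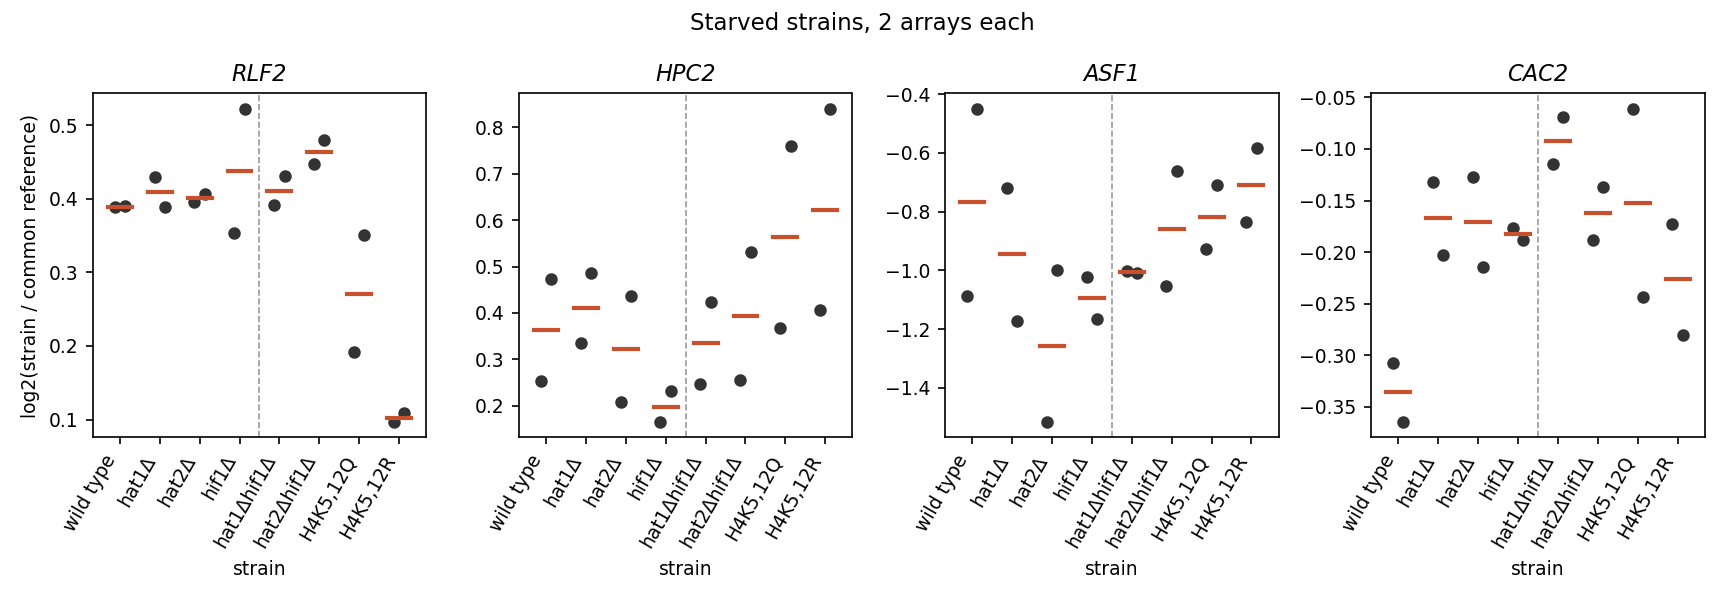
Log2(strain / common reference) (y axis) of RLF2, HPC2, ASF1 and CAC2 in the 8 starved strains (x axis); points are the 2 arrays of a strain, bars their mean, and the dashed line separates the 2 sets of arrays. The y axes differ in scale, and replicate a is drawn left of replicate b. RLF2 is lowest in H4K5,12R, at 0.10 and 0.11, and CAC2 is lowest in the wild type.

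The H4 mutants differ from each other only in the residue that replaces lysines 5 and 12, and they lie in 1 set of arrays. Between them 0 of 10 members and 0% of all probes were called, with 1 member and 267 probes at an unadjusted p under 0.05. That member was RLF2, higher in H4K5,12Q by 0.17 ± 0.07 (95% interval 0.02 to 0.32; limma adjusted p = 1.00).

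Deletion of HIF1 was also read in G0, on wild-type, hat1Δ and hat2Δ backgrounds. Of the members 0 were called, where 0.125% of all probes were, and the differences ran from -0.06 to 0.08. On the hat1Δ and hat2Δ backgrounds the strains with and without HIF1 lie in different sets of arrays. The difference between the HIF1 effect in G0 and that in mid-log, tested in a fit of 30 arrays, was called for 0 of 10 members and for 0.485% of all probes. The largest was HIR2, at 0.10 ± 0.06 (limma adjusted p = 0.485).

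Across the 18 strain means, which share 1 reference and fall into 8 starved and 10 growing strains, the profiles of the members mostly followed the split between starved and growing cells. ASF1 and RTT106 had a Pearson r of 0.99, HIR2 and ASF1 of 0.97 and HIR2 and HPC2 of -0.93. Within the 8 starved strains these were 0.87, -0.47 and -0.36, and within the 7 mid-log deletion strains 0.48, -0.61 and -0.03. Of the 45 pairs of members, 19 were above 0.8 over all 18 strains, 5 over the starved and 1 over the mid-log deletion strains. Only ASF1 and RTT106, of the pairs named here, stayed above 0.4 in all 3 sets of strains.

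The genes whose 18 strain means were most like those of a member were GLO3, RTF1 and TUP1 for ASF1 (r = 0.99 each), RPS9B, TUP1 and RPL3 for RTT106 (r = 0.99 each), and RPA190, EFR3 and CLB2 for HIR2 (r = 1.00 each). For SPT21 they were PTI1, TUB1 and BIO4 (r = 0.99 each), and for HPC2 SNR10, IRC20 and RCN1 (r = 0.98 each). Such likeness was common, since 1368 genes had an r above 0.95 with HIR2, 1111 with RTT106, 913 with ASF1, 209 with SPT21 and 198 with HPC2. The profiles of the others were shared by few genes. HIR3 had 40 genes above 0.95, led by PHO91, REX2 and MET22 (r = 0.97 each). CAC2 had 5, led by ARE1, DNF2 and DAT1 (r = 0.96 each), and MSI1 had 2, DUS3 and CIR2 (r = 0.96 each), followed by MDE1 (r = 0.95). RLF2 and HIR1 had 0: YKL222C, YCL049C and YER188W (r = 0.92, 0.90 and 0.89) were closest to RLF2, and SMY1, KEI1 and PDR11 (r = 0.85, 0.81 and 0.81) to HIR1.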

How the data were processed

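The authors deposited, for each of 36 arrays, the scanner intensity of every spot and the intensity of its local background. The authors also deposited normalized log2 ratios, made per the submitters' notes with limma 2.12.0, which served as an alternative and correlated with the ratios used here at 0.887 to 0.990. A deposited table of the authors' own fold changes and p-values was not used. Sample columns left unused numbered 0.

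In R 4.3.3 with limma 3.58.1, background was corrected by normexp with an offset of 50 and each array was loess-normalized, control spots having weight 0. Both spots of a probe were averaged, and ratios were turned to strain over reference (replicate a has the strain in Cy3, replicate b in Cy5). Differences were tested by lmFit and eBayes over 6388 probes, with a term for dye orientation, which is also the replicate block, and adjusted by Benjamini-Hochberg (called at 0.05). Fits of growing RITE strains alone included the 14 mid-log deletion arrays to share their spread. As a check of the pairing, which comes from the letters in the labels, deviations of same-lettered arrays from their strain means correlated at 0.357 to 0.772 in mid-log (21 pairs), 0.145 to 0.529 in growing RITE strains (3 pairs) and -0.217 to 0.760 in G0 (28 pairs). The number of arrays limits the precision. The fits were tested on simulated data.

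Of the probes, 5326 had 1 gene symbol in the platform annotation and 1062 had none. The members and gene lists were chosen with earlier results of these data known. Named genes are all members, up to 4 genes of a list with the largest called differences, and the 3 genes most like each member over 18 strain means. SPT10, RTT101, HTA1, HHT2, HAT2, HIF1 and the marker genes were named outside that rule, after their values were seen. Alternatives were print-tip loess, median centring, uncorrected intensities, dropping probes below the 25th percentile of intensity, the authors' ratios, all arrays in 1 fit, no replicate block, 1 growing control strain and leaving out each array. A normexp offset of 0 was added after the data were seen. Genome positions and sequences are not reported here.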

Additional observations from a re-analysis of the deposited data

How the results depend on the processing

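For the 91 member values called in some setting, 1040 comparisons with an alternative were made, of which 886 kept their direction and side of the threshold, 95 lost a call, 48 gained one and 11 turned direction. A further 159 member values were never called, and 101 of them changed sign under an alternative. The largest of these was ASF1 in starved hat1Δhif1Δ, at -0.24, which ran from -0.50 to 0.03. In the G0 wild type against growing RITE strains, counts of members called stayed within 1.5 times of 7 under all alternatives. Under print-tip loess HIR1, RLF2 and MSI1 were called besides the 7, so that every member was called, where 79% of all probes were. Other counts moved. Median centring gave 1 call for HIF1 in mid-log (HIR1, -0.17), where 14.9% of all probes were called. It gave 1 in H4K5,12R (3.71% of all probes) and 0 for H3-HA (39.6%). Print-tip loess and the authors' ratios each gave 1 call in H4K5,12Q, 1 in H4K5,12R, 1 for H3-HA and 2 for H3-T7. The shares of all probes called were 1.94%, 5.79%, 45% and 38.9% under print-tip loess. Under the authors' ratios they were 2.43%, 6.87%, 45.6% and 40.2%. A normexp offset of 0 gave 1 in H4K5,12R (6.86% of all probes). With all arrays in 1 fit there were 3 calls each in hat1Δhat2Δ, hat1Δhif1Δ, hat2Δhif1Δ and hif1Δ against the reference. There 21.9%, 20.5%, 18.3% and 21.1% of all probes were called. Among starved strains this fit gave 1 call in hat1Δhif1Δ (CAC2, 5.53% of all probes) and 1 in H4K5,12Q (CAC2, 13.4%). In H4K5,12R it gave 2 (RLF2 and HPC2, 20.9%), and for H3-HA and H3-T7 it gave 0 (19.5% and 13.9%). Without the replicate block, H3-HA had 1 call (27.1% of all probes), and no other count of calls moved by over 1.5 times.

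Leaving out 1 array gave 7 to 8 calls in the G0 wild type against growing RITE strains, 0 to 2 for H3-HA and for H3-T7, and 0 to 3 for the HAT1 deletion. Against the reference it gave 3 to 4 in hat1Δhat2Δ, hat1Δhif1Δ and hif1Δ, 3 to 5 in the triple mutant, 4 to 5 in hat2Δ and hat2Δhif1Δ, 4 in hat1Δ, 5 in the untagged RITE strain and 8 to 9 in the G0 wild type. All other counts were 0. The shares of all probes called were not computed for fits without 1 array.

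Some values turned direction. HIR1 for HIF1 in mid-log turned to -0.17 under median centring and was called there (limma adjusted p = 0.0411), and was at -0.0025 under the authors' ratios. It was at -0.057 in the G0 wild type against growing RITE strains under median centring, and at 0.064 and 0.150 in the G0 wild type against the reference under print-tip loess and the authors' ratios, the latter called higher (limma adjusted p = 0.00458). HIR2 was at -0.00811 in hat1Δ under median centring, and at 0.0056 and 0.024 in hat2Δhif1Δ under print-tip loess and the authors' ratios. Leaving out an array moved HIR2 for H3-HA between -0.18 and 0.018, RLF2 for H3-HA between -0.0090 and 0.19, and CAC2 in the untagged RITE strain between -0.00089 and 0.092. The causes were not tested. Without dim probes HIR1 was not tested, and its low signal over background limits what can be said of it.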
